A study of Bos grunniens and Bos grunniens x Bos taurus with 12 samples.

Results

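The 8 genes described here are used as markers of spermatogonial stem and progenitor cells, the germ cells at the base of the seminiferous tubule that renew themselves and supply spermatogenesis. They were taken by symbol from a list of 8 names (*UCHL1*, *DMRT1*, *ZBTB16*, *GFRA1*, *FGFR3*, *NANOS3*, *KIT* and *RET*), and each matched 1 row among the 20965 genes measured. The rule uses the names alone, and the names were picked with earlier results of these data known. All 8 passed the filter on low counts in each of the 6 comparisons between groups.

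Spermatogonial stem cells depend on signals from neighbouring somatic cells. GDNF, a growth factor made mainly by Sertoli cells and peritubular myoid cells, binds the co-receptor GFRA1 and thereby activates the receptor tyrosine kinase RET, and FGF ligands act on the same cells through FGF receptors. Inside the cell, transcription factors such as ZBTB16 and RNA-binding proteins of the NANOS family hold spermatogonia in an undifferentiated state, while DMRT1 controls the switch between mitosis and meiosis. Retinoic acid then starts differentiation, during which the cells gain KIT, the receptor for the ligand KITLG. A ribosome footprint (RF), the stretch of mRNA covered by a translating ribosome, reports the translation level of such a gene in the whole tissue.

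Ribo-seq of whole testis was performed in 4 groups of 3 animals, namely yaks of 6 months (juvenile stage), 18 months (puberty) and 4 years (sexual maturity), and cattle–yaks of 4 years. Cattle–yaks are hybrids of a Jersey cattle sire and a Gannan yak dam, and their males are infertile. No group carried a treatment or an engineered allele. The labels give castration as the source of tissue for every group, whereas the study's methods give euthanasia for the adult yaks and castration for the cattle–yaks, so the way of sampling and the hybrid genotype cannot be told apart between these groups, and hybrid RFs were aligned to a yak genome.

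Before the results, some facts on the libraries bear on them. The total count on genes was 16304058 to 17862516 in yaks of 4 years and 38437889 to 52616039 in cattle–yaks, the lowest and highest of all groups. The study also reports a higher alignment rate and a shorter main RF length in cattle–yak than in yak. These differences and the hybrid genotype cannot be told apart. Libraries of 1 group differed by more than counting noise (chi-square per degree of freedom of 26.4 to 336 for pairs of replicates). The 18-month libraries did not form 1 uniform group. The 4 spermatid markers *ACRV1*, *SPACA1*, *TNP1* and *ODF1* summed to 1.13, 6867 and 14.5 FPKM (counts per gene length and library total) in replicates 1, 2 and 3 at 18 months. The same sum was at most 0.95 at 6 months, 9105 to 11960 at 4 years and 1.85 to 30.5 in cattle–yak. Replicate 2 at 18 months thus held RFs of spermatid markers at a level closer to the yak testes of 4 years than to its own group. Replicate 3 at 18 months had the highest sum of peritubular myoid cell markers of its group (1266 FPKM against 408 and 494).

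The other cell types of the testis also differed between groups. The 6 Sertoli cell markers found summed to 299 to 339 FPKM at 6 months, 205 to 373 at 18 months, 130 to 202 at 4 years and 455 to 488 in cattle–yak. Markers of peritubular myoid cells (5 genes) summed to 141 to 242, 408 to 1266, 211 to 219 and 780 to 1291 FPKM in the same order of groups. Both steroidogenic Leydig cell markers found, *CYP11A1* and *STAR*, summed to 1585 to 2506 FPKM at 6 months, 361 to 910 at 18 months, 58.8 to 188 at 4 years and 580 to 1041 in cattle–yak. The 7 spermatocyte markers summed to 129 to 188, 181 to 376, 416 to 436 and 293 to 413 FPKM. In FPKM, the cattle–yak testes therefore combined the highest Sertoli cell marker sum with nearly no spermatid markers. The part of this tissue composition in the results below was not tested. In bulk tissue, fewer cells of a type and fewer RFs per cell cannot be told apart.

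**Figure D1:**
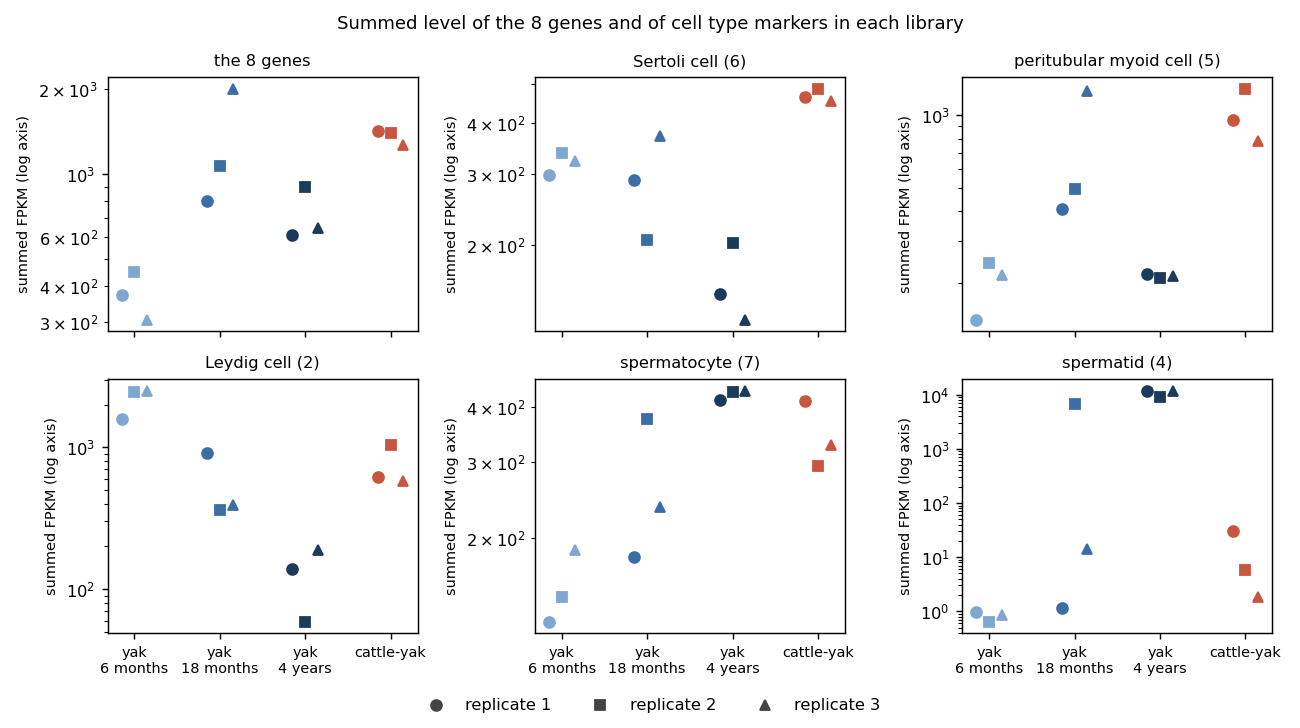
Summed FPKM of the 8 genes and of 5 cell type marker lists in each of the 12 libraries, on logarithmic y axes that differ between panels, with the number of marker genes in brackets and a symbol shape for each replicate number. Replicate 2 at 18 months reached 6867 FPKM for the spermatid list while the other 18-month libraries stayed at 1.13 and 14.5.

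The 8 genes fell into different patterns. *DMRT1*, *ZBTB16* and *NANOS3* were lowest at 6 months and highest in cattle–yak, and all 3 were differentially translated genes (DTGs) between cattle–yak and yak of 4 years, with higher translation levels in cattle–yak. *UCHL1* also had its lowest mean at 6 months, where its difference from 4 years did not pass, and its highest mean at 18 months. *GFRA1* ran the other way, with its highest mean at 6 months and its lowest at 4 years. *KIT* varied least, with group means within 42.9 to 56.7 FPKM, and *RET* and *FGFR3* did not pass the threshold in any comparison. A gene was counted as a DTG when edgeR's quasi-likelihood test on TMM-scaled counts gave a Benjamini-Hochberg adjusted p below 0.05 over all genes tested and its log2 fold change was 1 or more in size. FPKM is scaled by the library total and log2 fold changes by TMM, so the 2 differ where the total moved relative to most genes: under scaling by the total, the median log2 fold change of all genes over yak of 6 months was 0.42 for the 18-month, 0.64 for the 4-year and 0.52 for the cattle–yak libraries, against 0.05, 0.08 and −0.02 by TMM. By TMM the median of all genes in cattle–yak over 18 months was −0.13.

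**Figure D2:**
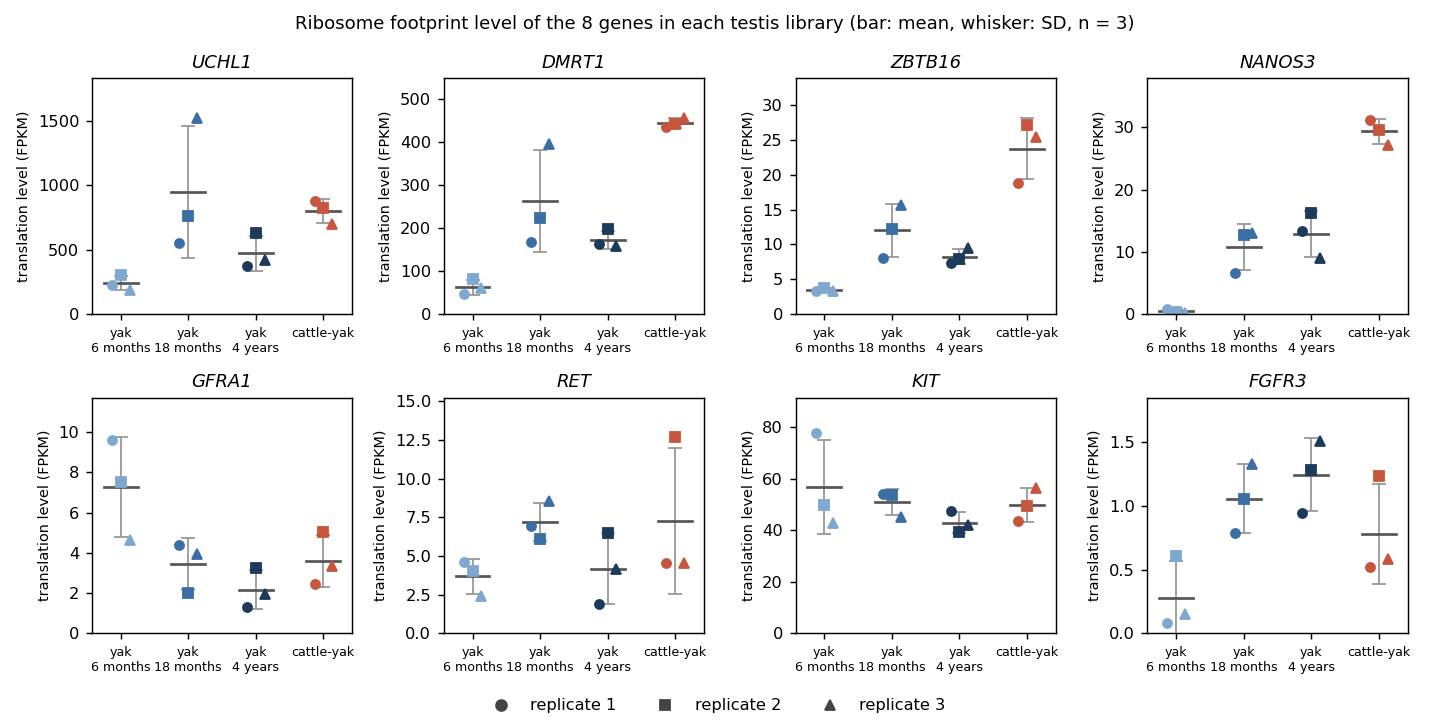
Translation level (FPKM) of each of the 8 genes in every library, by group, with the mean as a bar and the SD of 3 libraries as a whisker, on linear axes that start at 0 and differ between panels. The cattle–yak libraries of *DMRT1*, *ZBTB16* and *NANOS3* lie above all libraries of yak of 4 years, while those of *KIT* overlap with them.

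*ZBTB16* (ENSBGRG00000005665), also called PLZF, is a transcriptional repressor that keeps spermatogonia undifferentiated. Its level was 3.36, 3.76 and 3.35 FPKM in replicates 1, 2 and 3 at 6 months, 8.11, 12.2 and 15.7 at 18 months, 7.39, 7.87 and 9.44 at 4 years, and 18.8, 27.1 and 25.4 in cattle–yak. Each cattle–yak library was above every yak library, and the 6-month libraries were below all others. Cattle–yak exceeded yak of 4 years by a log2 fold change of 1.49 ± 0.17 (SE, n = 3 per group, edgeR adjusted p = 0.000104) and yak of 6 months by 2.19 ± 0.18 (edgeR adjusted p = 3.9e-05). Against 18 months the difference was 0.83 ± 0.25 and did not pass (edgeR adjusted p = 0.0916). Yak of 4 years differed from yak of 6 months by 0.68 ± 0.18, with an edgeR adjusted p of 0.00855 but a size below 1. The order by mean was 6 months, 4 years, 18 months and cattle–yak, and among neighbours only 6 months and 4 years had an edgeR adjusted p below 0.05 (for 4 years and 18 months, edgeR adjusted p = 0.113).

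*DMRT1* (ENSBGRG00000003868) encodes a DNA-binding factor of the DM domain family, which acts in spermatogonia and is also expressed in Sertoli cells. Its level was 47.4, 81.9 and 59.7 FPKM at 6 months, 167, 224 and 395 at 18 months, 164, 197 and 158 at 4 years, and 435, 442 and 456 in cattle–yak. The 3 cattle–yak libraries lay within 1.05-fold of each other and above all yak libraries, although replicate 3 at 18 months came near them. The log2 fold change of cattle–yak over yak of 4 years was 1.37 ± 0.12 (edgeR adjusted p = 3.1e-05) and over yak of 6 months 2.29 ± 0.18 (edgeR adjusted p = 3.3e-05). Over yak of 18 months it was 0.64 ± 0.29 (edgeR adjusted p = 0.195), and without replicate 3 at 18 months it was 1.05 (edgeR adjusted p = 0.0482). Yak of 4 years exceeded yak of 6 months by 0.90 ± 0.18 (edgeR adjusted p = 0.00197), short of the size threshold, and this became 1.09 without replicate 2 at 6 months. In FPKM, the Sertoli cell marker sum, like *DMRT1*, was highest in cattle–yak, while in yak it was lower at 4 years than at 6 months. In TMM-scaled CPM (counts relative to the TMM-scaled library total), the Sertoli cell sum of cattle–yak overlapped with that of 6 months. It was 627 to 676 in cattle–yak, 619 to 680 at 6 months and 167 to 258 at 4 years. On that scale *DMRT1* was 427 to 448 in cattle–yak and 74.5 to 109 at 6 months, without overlap. The part of Sertoli cells in the level of *DMRT1* was not tested.

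*NANOS3* (ENSBGRG00000021964) encodes an RNA-binding repressor of translation that protects germ cells from the embryonic gonad onwards. Its level was 0.90, 0.29 and 0.23 FPKM at 6 months, 6.60, 12.7 and 13.1 at 18 months, 13.4, 16.3 and 8.98 at 4 years, and 31.2, 29.6 and 27.2 in cattle–yak. The 6-month libraries held only 13, 6 and 4 counts for this gene, against 82 to 163 at 4 years and 585 to 919 in cattle–yak. No library of 6 months or of cattle–yak overlapped with another group. The rise over 6 months was the largest of any of the 8 genes, with log2 fold changes of 4.20 ± 0.57 at 4 years (edgeR adjusted p = 0.000168) and 5.46 ± 0.46 in cattle–yak (edgeR adjusted p = 4.7e-05). Cattle–yak also exceeded yak of 4 years, by 1.20 ± 0.24 (edgeR adjusted p = 0.00232). Between 18 months and 4 years the difference was 0.10 ± 0.35 (edgeR adjusted p = 0.832), whose error leaves a change in either direction possible.

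*UCHL1* (ENSBGRG00000002608) encodes a deubiquitinating enzyme abundant in neurons and spermatogonia, and it had the highest FPKM of the 8 genes in every library. Its level was 229.8, 303 and 191 FPKM at 6 months, 553, 759 and 1524 at 18 months, 371, 626 and 419 at 4 years, and 882, 827 and 699 in cattle–yak. The highest value of all 12 libraries was replicate 3 at 18 months, 2.76-fold above replicate 1 of the same age. Cattle–yak exceeded yak of 6 months by a log2 fold change of 1.20 ± 0.20 (edgeR adjusted p = 0.00115). Over yak of 4 years the change was 0.82 ± 0.20, with an edgeR adjusted p of 0.0069 but a size below the threshold, and leaving out replicate 2 at 4 years, the highest of its group, gave 1.12 (edgeR adjusted p = 0.00063).

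Among the receptors, *GFRA1* (ENSBGRG00000016210) encodes the co-receptor that binds GDNF at the cell surface. Its level was 9.63, 7.52 and 4.66 FPKM at 6 months, 4.39, 2.01 and 3.95 at 18 months, 1.33, 3.24 and 1.96 at 4 years, and 2.46, 5.02 and 3.34 in cattle–yak. Every 6-month library was above every library of 18 months and 4 years, while cattle–yak replicate 2 reached into the 6-month range. Compared with 6 months, the log2 fold change was −2.34 ± 0.41 at 4 years (edgeR adjusted p = 0.000729) and −1.59 ± 0.37 in cattle–yak (edgeR adjusted p = 0.00691). With limma on FPKM in place of edgeR, the cattle–yak decrease was −0.83 or −0.99, depending on the pseudocount, and was no longer called. Cattle–yak differed from yak of 4 years by 0.73 ± 0.39 (edgeR adjusted p = 0.131), and without replicate 2 at 4 years by 1.20 (edgeR adjusted p = 0.035).

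*RET* (ENSBGRG00000024201) encodes the tyrosine kinase that passes on the GDNF signal taken up by GFRA1. Its level was 4.58, 4.06 and 2.41 FPKM at 6 months, 6.96, 6.13 and 8.55 at 18 months, 1.88, 6.49 and 4.18 at 4 years, and 4.57, 12.7 and 4.53 in cattle–yak. The cattle–yak mean of 7.27 rested on replicate 2, while the other 2 cattle–yak libraries lay inside the range of yak of 4 years. No comparison of *RET* passed, with log2 fold changes between −0.99 ± 0.45 (4 years over 18 months, edgeR adjusted p = 0.165) and 0.81 ± 0.51 (cattle–yak over 4 years, edgeR adjusted p = 0.194). Without cattle–yak replicate 2 the latter was 0.15, so its size was set by that library.

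*KIT* (ENSBGRG00000023915) encodes the receptor for KITLG, which differentiating spermatogonia, Leydig cells and mast cells carry. Its level was 77.5, 49.7 and 42.9 FPKM at 6 months, 53.8, 53.5 and 45.1 at 18 months, 47.3, 39.4 and 42.1 at 4 years, and 43.5, 49.2 and 56.5 in cattle–yak. In FPKM, the ranges of all 4 groups overlapped, and replicate 1 at 6 months was the highest library. In TMM-scaled CPM, *KIT* was 319, 174 and 151 at 6 months and 176, 137 and 123 at 18 months. It was 125, 98.2 and 104 at 4 years and 112, 127 and 146 in cattle–yak. On that scale each 6-month library was above all libraries of 4 years and cattle–yak, but the 6-month and 18-month ranges overlapped. Compared with 6 months, *KIT* was lower at 4 years (log2 fold change −0.999 ± 0.27, edgeR adjusted p = 0.00869) and in cattle–yak (−0.76 ± 0.27, edgeR adjusted p = 0.0413), in both cases below the size threshold. The 4-year value is just inside that threshold, and it was counted as a DTG when any of replicate 2 or 3 at 6 months or replicate 1 at 4 years was left out (−1.13, −1.20 and −1.11). Cattle–yak and yak of 4 years differed by 0.22 ± 0.13 (edgeR adjusted p = 0.183). The mast cell genes *CPA3*, *HDC* and *MS4A2* summed to at most 3.0 FPKM in any library. The Leydig cell marker sum was highest at 6 months, as was the mean of *KIT*, but its lowest 6-month value (1585 FPKM) was in replicate 1, where *KIT* was highest. The part of mast cells and of Leydig cells in the level of *KIT* was not tested.

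*FGFR3* (ENSBGRG00000017575) encodes an FGF receptor found on undifferentiated human spermatogonia, and it had the lowest mean FPKM of the 8 genes in each group. Its level was 0.08, 0.61 and 0.15 FPKM at 6 months, 0.79, 1.05 and 1.33 at 18 months, 0.94, 1.28 and 1.51 at 4 years, and 0.52, 1.23 and 0.58 in cattle–yak. At 6 months it rested on 5, 56 and 11 counts, so that replicate 2 set the group mean. The log2 fold change of 4 years over 6 months was 1.57 ± 0.65 (edgeR adjusted p = 0.053), and without replicate 2 at 6 months it was 2.83 (edgeR adjusted p = 0.00181). Cattle–yak and yak of 4 years differed by −0.68 ± 0.40 (edgeR adjusted p = 0.169), which became −1.16 without cattle–yak replicate 2 (edgeR adjusted p = 0.023). The direction of *FGFR3* between these groups was thus opposite to that of the other 7 genes, but the difference did not pass the test with all libraries.

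The comparisons share libraries, so the following counts are not independent of each other. The first asks how translation differed between juvenile and pubertal testis. Of the 8 genes, 0 were called between 18 months and 6 months by edgeR, where 0.0202% of the 14874 genes tested were called higher and 0.0471% lower. An unadjusted p below 0.05 was reached by 5 of the 8, and DESeq2 called 4 higher (*UCHL1*, *DMRT1*, *ZBTB16* and *NANOS3*) and 1 lower (*GFRA1*), where it called 7.13% of genes higher and 5.43% lower. The largest changes were those of *NANOS3* (4.09 ± 0.68, edgeR adjusted p = 0.0533), *DMRT1* (1.70 ± 0.32, edgeR adjusted p = 0.0596) and *UCHL1* (1.58 ± 0.38, edgeR adjusted p = 0.0831). The libraries of the 2 ages did not overlap in FPKM for 6 genes that were higher (29.7% of all genes) and for *GFRA1*, which was lower (8.05%). Leaving out replicate 1 at 18 months, which had the lowest *UCHL1*, *DMRT1*, *ZBTB16*, *NANOS3* and *FGFR3* of its group, brought the count to 4 higher genes. Over all genes, the same fit called 1344 higher and 1249 lower of 15454 tested, in place of 3 and 7 of 14874. Leaving out replicate 2, the library with spermatid markers, left the count of the 8 genes at 0.

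Between 4 years and 18 months, 0 of the 8 genes were called by edgeR (0.0371% of 16175 genes were lower and 0.0% higher), 2 had an unadjusted p below 0.05, and DESeq2 called *UCHL1* lower (14.2% of genes lower). Most of the 8 genes were on the lower side at 4 years, with a median log2 fold change of −0.73, against 0.01 for all genes. The values were −1.20 ± 0.41 for *UCHL1*, −0.99 ± 0.45 for *RET*, −0.91 ± 0.51 for *GFRA1*, −0.77 ± 0.32 for *DMRT1*, −0.70 ± 0.24 for *ZBTB16* and −0.44 ± 0.21 for *KIT*. When replicate 2 at 18 months was left out, *UCHL1* (−1.34, edgeR adjusted p = 0.0208) and *GFRA1* (−1.19, edgeR adjusted p = 0.0458) were called lower, and over all genes 4277 were called higher instead of 0 and 3033 lower instead of 6. The count of calls between these ages thus depended on that library, and it also depended on the model. With all libraries kept, DESeq2 called 2092 genes higher and 2291 lower, and 1 edgeR fit of all 12 libraries called 1121 and 2365.

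The comparison of 4 years with 6 months, which spans the onset of spermatogenesis, was the one with most calls over all genes. *NANOS3* was called higher and *GFRA1* lower, that is 1 of the 8 in each direction, where 31.0% of genes were called higher and 24.7% lower. With 8 genes, 1 call in each direction cannot be told apart from these shares. Adjusted p-values below 0.05 without the size threshold were reached by 5 of the 8, namely *NANOS3*, *DMRT1* and *ZBTB16* on the higher side and *GFRA1* and *KIT* on the lower side, against 72.5% of genes. The libraries of the 2 ages did not overlap in FPKM for 5 genes that were higher (53.1% of all genes), *UCHL1* among them, and for *GFRA1*, which was lower (23.3%). Scaling by the library total turned the 5009 higher and 3985 lower calls over all genes into 6596 and 2493. Among the 8 genes it called 4 higher in place of 1. The median log2 fold change of the 8 genes was 0.52, and that of all genes was 0.08.

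Cattle–yak were compared with yak of the same age to ask how translation differs in the infertile hybrid. Of the 8 genes, 3 were called higher (*ZBTB16*, *DMRT1* and *NANOS3*) and 0 lower, where 17.1% of the 16498 genes tested were called higher and 27.0% lower. The same 3 were called by DESeq2, which called 15.9% of genes higher, and each was called with any 1 of the 6 libraries left out, with the highest edgeR adjusted p at 0.000249 for *DMRT1*, 0.000972 for *ZBTB16* and 0.00723 for *NANOS3*. With *UCHL1*, 4 of the 8 genes had cattle–yak libraries that were all above those of yak (34.3% of all genes). With 8 genes, picked with earlier results known, these counts cannot be told apart from the shares of all genes. The median log2 fold change of the 8 was 0.82, against −0.00 for all genes.

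**Figure D3:**
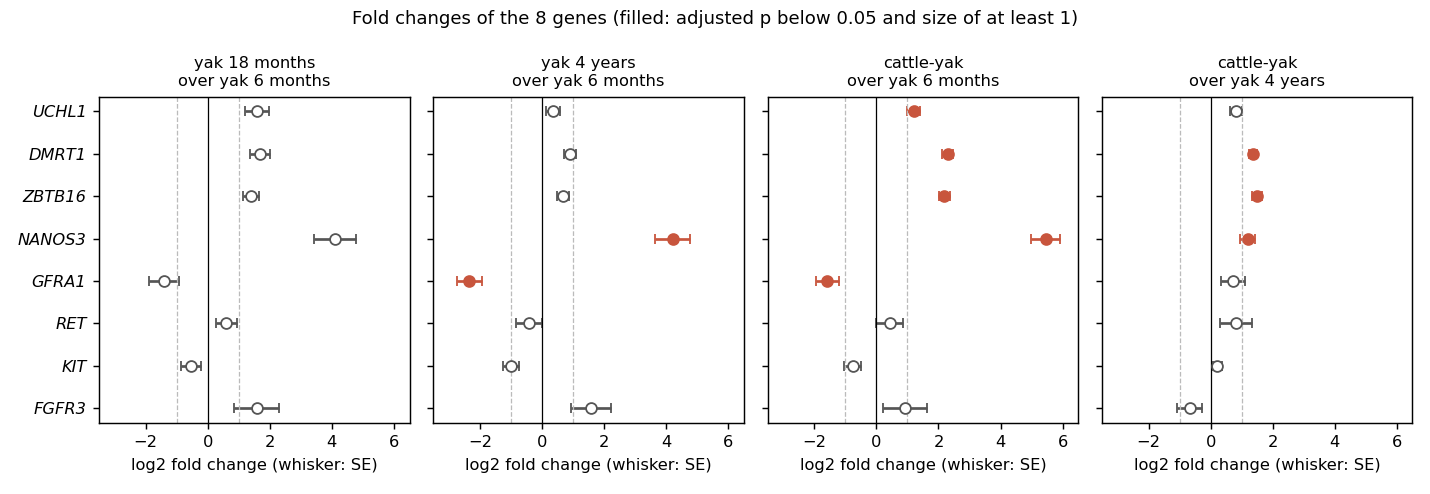
Log2 fold change of each of the 8 genes in 4 comparisons, with its SE as a whisker, a solid line at 0 and dashed lines at the size threshold of 1. Filled points passed both thresholds: *NANOS3* and *GFRA1* at 4 years over 6 months, 5 genes in cattle–yak over 6 months, and *ZBTB16*, *DMRT1* and *NANOS3* in cattle–yak over 4 years.

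Against the younger yaks, cattle–yak differed in more of these genes from 6 months than from 18 months. Over 6 months, 4 genes were called higher (*NANOS3*, *DMRT1*, *ZBTB16* and *UCHL1*) and 1 lower (*GFRA1*), where 18.1% of genes were called higher and 19.7% lower. Each of these 5 was called with any 1 library left out, and 4 genes had cattle–yak libraries that were all above those of 6 months (50.8% of all genes). Over all genes, scaling by the library total gave 4867 higher and 1875 lower calls in place of 2823 and 3067. Over 18 months, *NANOS3* alone was called (1.33 ± 0.28, edgeR adjusted p = 0.0441), where 3.45% of genes were called higher and 2.34% lower. That call was lost when any library other than replicate 2 at 18 months was left out (edgeR adjusted p up to 0.178). The cattle–yak libraries of *DMRT1*, *ZBTB16* and *NANOS3* were nevertheless all above those of 18 months, as were those of 24.0% of all genes. *UCHL1* (−0.34 ± 0.36), *GFRA1* (−0.14 ± 0.48), *RET* (−0.14 ± 0.46) and *KIT* (−0.18 ± 0.20) were near 0 between cattle–yak and yak of 18 months, with errors larger than the values.

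The direction in cattle–yak depended on the reference. The scalings by TMM, library total, RLE and upper quartile set the bulk of genes to about 0, and with each of them 7 of the 8 genes were on the higher side in cattle–yak over yak of 4 years. When libraries were instead scaled by the summed count of 5 Sertoli cell genes (*WT1*, *SOX9*, *GATA4*, *FSHR* and *DHH*), the median of all genes moved to −1.75 and all 8 genes were on the lower side. The values were −0.36 for *DMRT1* (edgeR adjusted p = 0.0736), −0.28 for *ZBTB16* (edgeR adjusted p = 0.285), −0.52 for *NANOS3* (edgeR adjusted p = 0.0519) and −0.91 for *UCHL1* (edgeR adjusted p = 0.00202). *KIT* at −1.53 (edgeR adjusted p = 9.3e-05) and *FGFR3* at −2.46 (edgeR adjusted p = 0.000389) were called lower, as were 12183 of the 16498 genes tested under this scaling. Relative to that median, all of the 8 genes but *FGFR3* lay on the higher side, as by TMM. A scaling shifts all genes of a library together, so this position could hardly change and is no separate result. Set against Sertoli cell genes, *DMRT1* was 1.22, 1.26 and 1.39 times the FPKM sum of the 5 genes at 4 years. In cattle–yak it was 1.01, 0.952 and 1.08 times, with all libraries below those of yak of 4 years. These cattle–yak ratios overlapped with those of yak of 18 months. They were above those of yak of 6 months, at 0.163, 0.245 and 0.188 times. With 12183 of the 16498 genes called lower under Sertoli scaling, a lower ratio does not set *DMRT1* apart from other genes.

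**Figure D4:**
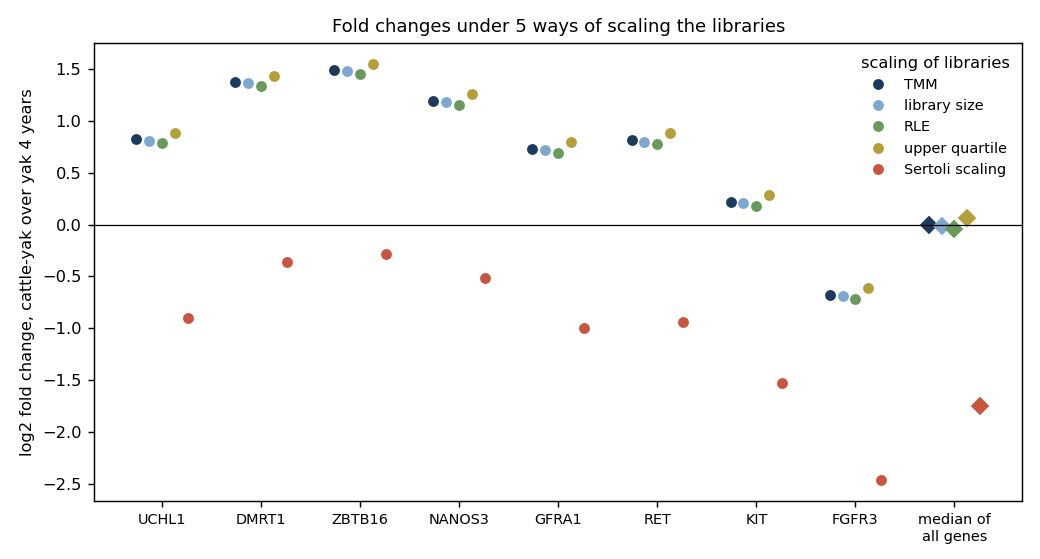
Log2 fold change of cattle–yak over yak of 4 years for the 8 genes (circles) and for the median of all genes tested (diamonds) under 5 ways of scaling the libraries, each in its own colour. The first 4 scalings differ little, whereas scaling on Sertoli cell genes moves the median to −1.75 and the 8 genes with it.

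Ratios of 2 genes within a library do not depend on scaling. *KIT* over *ZBTB16* sets a gene carried by differentiating spermatogonia, among other cells, against one of undifferentiated spermatogonia. In FPKM it was 23.1, 13.2 and 12.8 at 6 months, 6.64, 4.37 and 2.87 at 18 months, 6.40, 5.01 and 4.46 at 4 years and 2.32, 1.82 and 2.22 in cattle–yak. The ratio was lowest in cattle–yak and highest at 6 months, and neither group overlapped with another. Leydig cells also carry *KIT*, and their marker sum was highest at 6 months. The part of cell composition in this ratio was not tested. The log2 ratio of cattle–yak was 1.31 below that of yak of 4 years (1.08 ± 0.19 against 2.39 ± 0.27, SD, n = 3 each, two-sided exact permutation p = 0.1). With 3 libraries against 3 an exact permutation test cannot give a p below 0.1, so none of the 30 ratio comparisons could pass (adjusted p of 0.158 at the lowest). The groups did not overlap in 19 of the 30. These comparisons share libraries and genes, and the share without overlap among other gene pairs was not computed. The count therefore does not set these pairs apart from others.

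The receptor pair changed in relation to each other as well. *RET* over *GFRA1* was 0.476, 0.540 and 0.517 at 6 months, so that the co-receptor had the higher FPKM. It was 1.59, 3.05 and 2.16 at 18 months, 1.41, 2.003 and 2.13 at 4 years, and 1.86, 2.53 and 1.36 in cattle–yak, where the kinase had the higher FPKM in each library. *UCHL1* over *DMRT1* was 4.85, 3.70 and 3.19 at 6 months, 3.30, 3.39 and 3.85 at 18 months, 2.27, 3.18 and 2.65 at 4 years and 2.03, 1.87 and 1.53 in cattle–yak. The cattle–yak ratios were thus below those of each yak group. *FGFR3* over *ZBTB16* was 0.127 to 0.163 at 4 years and 0.0228 to 0.0454 in cattle–yak, without overlap. *KIT* over *GFRA1* was 6.61 to 9.21 at 6 months and higher in all libraries of the other groups, from 9.80 in a cattle–yak to 35.6 in a yak of 4 years.

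**Figure D5:**
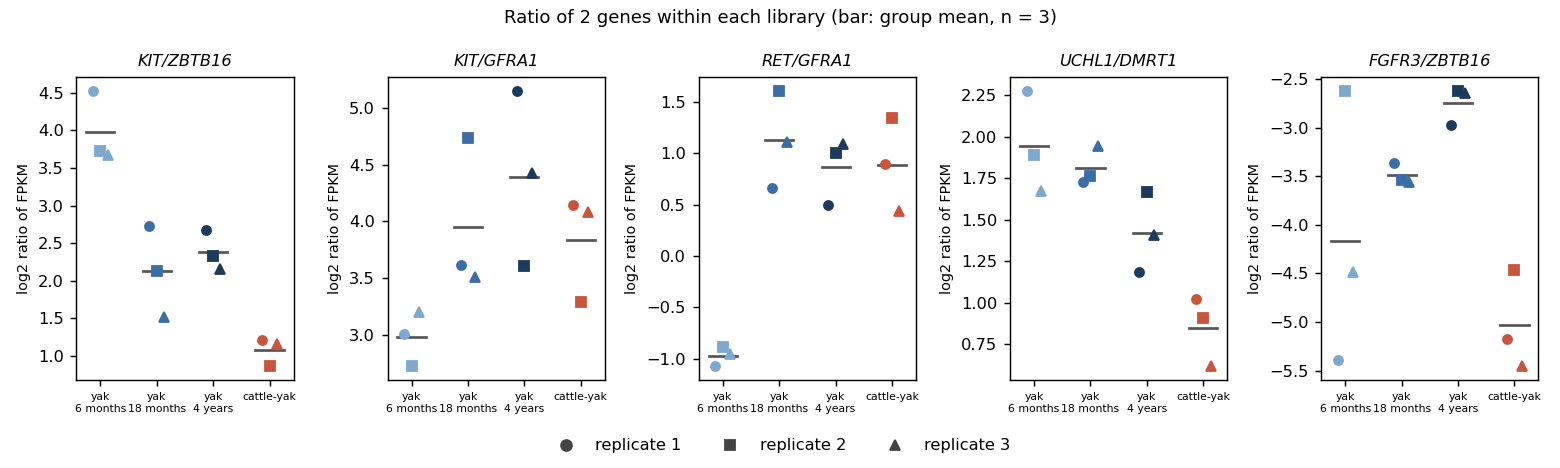
Log2 ratio of the FPKM of 2 genes within each library for 5 pairs, by group, with the group mean as a bar and axes that differ between panels. *KIT*/*ZBTB16* and *UCHL1*/*DMRT1* are lowest in cattle–yak, and *RET*/*GFRA1* is below 0 at 6 months alone.

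Other genes were read from a list of 28 further stem and progenitor genes, of which 20 matched a symbol and 19 were tested between cattle–yak and yak of 4 years. They were called in both directions, 5 higher and 5 lower, where 17.1% of all genes were called higher and 27.0% lower. Their median log2 fold change was 0.09, against −0.00 for all genes. By the rule for naming genes these include *ID4*, an inhibitor of differentiation that marks stem cells, and *LHX1*, a transcription factor induced by GDNF. *ID4* was 42.4, 51.0 and 48.9 FPKM at 4 years and 213, 211 and 204 in cattle–yak, with a log2 fold change of 2.15 ± 0.12 (edgeR adjusted p = 2.4e-06). *LHX1* was 2.11, 0.81 and 1.18 FPKM at 4 years and 0.12, 0.33 and 0.06 in cattle–yak, where it rested on 3 to 16 counts, with a log2 fold change of −2.98 ± 0.68 (edgeR adjusted p = 0.00485). The groups overlapped for neither gene. The other calls, named here after their values were seen, were *ETV5* (1.68), *FOXO1* (1.45), *THY1* (1.35) and *TAF4B* (1.01) on the higher side and *CDH1* (−1.91), *PLPPR3* (−1.78), *BCL6B* (−1.55) and *EPCAM* (−1.16) on the lower side. Of these, *ETV5* and *BCL6B* are, like *LHX1*, genes that respond to GDNF, and they did not move in 1 direction. The levels of the listed genes are those of the whole tissue, and the part of other cell types in them was not tested.

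Among genes of differentiating spermatogonia, 4 were tested, of which 1 was called higher and 2 lower in cattle–yak over yak of 4 years, beside the same 17.1% and 27.0% of all genes. *RARG*, the retinoic acid receptor of spermatogonia, was 3.68, 2.85 and 3.30 FPKM at 4 years and 6.41, 6.85 and 8.04 in cattle–yak (log2 fold change 1.11 ± 0.20, edgeR adjusted p = 0.00149). *DNMT3B*, a DNA methyltransferase, was 6.11, 6.36 and 5.95 FPKM at 4 years and 1.95, 1.72 and 2.54 in cattle–yak (−1.63 ± 0.19, edgeR adjusted p = 0.00014). The groups did not overlap for either. The other gene called was *DMRTB1* (−1.02 ± 0.18, edgeR adjusted p = 0.00127), a relative of *DMRT1* that acts at the entry into meiosis and was named after its value was seen.

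Among the ligands of the niche, 8 matched a symbol. *GDNF*, the ligand of GFRA1 and RET, had at most 18 counts in any library (0.82, 0.36 and 0.20 FPKM at 6 months, 0.88, 0.00 and 1.10 at 18 months, 0.42, 0.17 and 0.18 at 4 years and 0.17, 0.12 and 0.20 in cattle–yak) and passed the filter in 1 comparison alone, 18 months over 6 months (0.19 ± 1.16, edgeR adjusted p = 0.928). No change of *GDNF* was detectable at this depth. *KITLG*, the ligand of KIT, was 11.3, 17.8 and 18.4 FPKM at 6 months, 17.6, 14.7 and 15.4 at 18 months, 4.54, 6.56 and 8.40 at 4 years and 19.3, 25.04 and 21.8 in cattle–yak. All libraries of 4 years were below all others, and its log2 fold change was −1.85 ± 0.26 at 4 years over 6 months (edgeR adjusted p = 0.000207) and 1.78 ± 0.23 in cattle–yak over 4 years (edgeR adjusted p = 0.000253). All 5 ligands tested between 4 years and 6 months, *KITLG*, *CXCL12*, *FGF2*, *CSF1* and *NRTN*, were called lower at 4 years (24.7% of all genes), and 2 of 5 were called higher in cattle–yak over 4 years (17.1% of all genes). *CXCL12*, a chemokine that holds stem cells in their niche, was the second of these at 1.94 ± 0.34 (edgeR adjusted p = 0.00128). The Sertoli cell and Leydig cell marker sums were likewise lowest at 4 years, and their part in these values was not tested.

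Downstream of the receptors, 23 genes of receptor partners and signal relay were tested. In cattle–yak over yak of 4 years 9 were called higher and 2 lower, where 17.1% of all genes were called higher and 27.0% lower. At 4 years over 6 months 2 were called higher and 13 lower, where 31.0% of all genes were called higher and 24.7% lower. *SRC*, a kinase of the GDNF and KIT pathways, was 15.5, 21.4 and 14.3 FPKM at 4 years and 61.6, 79.8 and 63.3 in cattle–yak (log2 fold change 2.01 ± 0.18, edgeR adjusted p = 3.3e-05). *FRS3*, an adaptor of FGF receptors, was 3.70, 3.03 and 4.85 FPKM at 4 years and 0.68, 0.82 and 0.48 in cattle–yak (−2.53 ± 0.33, edgeR adjusted p = 0.000226). Neither gene overlapped between the groups. Most of these relay genes are expressed in many cell types, and their levels here are those of the whole tissue. Between 18 months and either neighbouring age, 0 genes of the 4 lists were called by edgeR.

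Likeness between profiles over the 12 libraries was measured as the root mean square difference of log2 CPM after centring each gene. Among the 8 genes, *DMRT1* and *ZBTB16* were closest (0.25), and *GFRA1* and *NANOS3* were farthest apart (2.81). Of 9773 other genes compared, *ZBTB16* ranked number 7 for *DMRT1*, and *DMRT1* ranked number 5 for *ZBTB16*. The 3 genes closest to *DMRT1* were *NT5DC1* (0.19), *BUD23* (0.21) and *ETV5* (0.23), and those closest to *ZBTB16* were *TTC19* (0.22), *USP13* (0.22) and *RARG* (0.23). *KIT* was nearest to *GOLM1* (0.18), *NIPAL2* (0.19) and *SLC39A6* (0.20), and *UCHL1* to *ZXDC* (0.28), *MMP15* (0.30) and *RAB12* (0.32). *GFRA1* was nearest to *WFIKKN2*, *NAGLU* and *CHST3* (all 0.28). The nearest genes of *RET* (*CDH3*, 0.35, then *DUSP14* and *BNC2*), *FGFR3* (*NR6A1*, 0.44, then *HECW2* and *NR3C2*) and *NANOS3* (*RAB40B*, 0.48, then *NDRG4* and *SULT4A1*) were farther away. Depth and tissue composition differed between the 12 libraries and act on all genes of a library at once, and their part in these likenesses was not tested.

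The annotation deposited with the tables gave few terms that the 8 genes share. *FGFR3*, *KIT* and *RET* were listed with protein tyrosine kinase activity and with positive regulation of the MAPK cascade. *DMRT1*, *KIT* and *NANOS3* were the 3 listed under spermatogenesis, and *DMRT1*, *NANOS3* and *ZBTB16* were the 3 listed in the nucleus.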

How the data were processed

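Ribo-seq tables of 12 testis libraries were used. The authors used fastp for trimming, Bowtie2 to discard rRNA reads and BLAST to discard small RNA, then aligned RFs to the yak genome BosGru 3.0 with STAR and counted them with RSEM. These steps are described for the 4-year groups, and for the younger yaks only Bowtie2 and RSEM are given in the labels. The deposited expected counts per gene are whole numbers without normalization, and the authors' FPKM divides them by effective length and library total. The authors' fold changes, p-values, FDR and group means in the same tables were not used. Values of libraries present in several tables were identical.

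Counts were tested for each pair of groups, with those 6 libraries only, by edgeR 4.0.16 in R 4.3.3 (filterByExpr, TMM, quasi-likelihood test, Benjamini-Hochberg over all genes tested), and an SE is the size of the log2 fold change over the square root of F. P-values measure the spread between libraries, 1 per animal by the labels, so animal and library preparation are not separated. Ratios used two-sided exact permutation tests, adjusted over 30. Likeness used genes with a symbol and a mean log2 CPM of at least 1 (prior count 2). Scripts were tested on simulated data. Alternatives were DESeq2 1.42.0, 4 other scalings, no filter, all 12 libraries in 1 fit, limma 3.58.1 on log2(FPKM + 1) or log2(FPKM + 0.1) with a filter of FPKM 0.1, blocking on the replicate number, and leave-one-out fits. Pandas 2.3.3, numpy 2.4.6, scipy 1.17.1 and matplotlib 3.10.9 (Python 3.11.15) gave summaries and figures.

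The 8 genes and all lists were chosen with earlier results of these data known. From the lists the named genes were *GDNF*, *KITLG* and, per list, the 2 called genes of largest size with non-overlapping groups in 18 months over 6 months, 4 years over 18 months and cattle–yak over 4 years, and the 3 nearest genes of each of the 8. Markers of endothelial cells and macrophages were also summed, to 10.0 to 32.8 and 124 to 442 FPKM over the 12 libraries. The summed nerve and Schwann cell list is not reported here. Sequences and genome positions of the 8 genes were not used here.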

Additional observations from a re-analysis of the deposited data

How the results depend on the processing

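The 3 calls in cattle–yak over yak of 4 years (*ZBTB16*, *DMRT1*, *NANOS3*) and the 4 genes called higher in cattle–yak over 6 months were kept in number by each alternative that used all libraries of a comparison, except that scaling on Sertoli cell genes gave 0 higher and 2 lower in the first. That scaling ties all values to 1 cell type. At 4 years over 6 months, 1 gene was called higher and 1 lower. Higher calls were 2 with DESeq2, with RLE and with all 12 libraries in 1 fit, 3 with limma on log2(FPKM + 1), 4 with limma on log2(FPKM + 0.1) and with scaling by library size, and 6 with Sertoli scaling. Lower calls were 2 with the upper quartile and with no filter, and 0 with Sertoli scaling. At 18 months over 6 months the 0 calls became 4 higher with DESeq2 and with all 12 libraries, 1 higher with library size, with the upper quartile and with limma on log2(FPKM + 1), and 1 lower with DESeq2. At 4 years over 18 months 1 gene was called lower with DESeq2 and with all 12 libraries. The call of *NANOS3* over 18 months in cattle–yak was lost (0 higher) with library size, upper quartile, Sertoli scaling, no filter, all 12 libraries and limma on log2(FPKM + 0.1). The lower call of *GFRA1* in cattle–yak over 6 months was lost (0 lower) with limma at both pseudocounts. Pathway genes had 87 calls over the 6 comparisons and 135 with DESeq2.

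With each library left out, the members called higher numbered 0 to 4 at 18 months over 6 months, 1 to 3 at 4 years over 6 months, 3 to 5 in cattle–yak over 4 years, 4 to 5 in cattle–yak over 6 months and 0 to 1 in cattle–yak over 18 months. Those called lower numbered 0 to 2 at 4 years over 18 months, 1 to 2 at 4 years over 6 months and 0 to 1 in cattle–yak over 4 years. The direction of a log2 fold change that had not passed turned for *FGFR3* (−0.0837 to 0.22) and *NANOS3* (−0.0917 to 0.32) at 4 years over 18 months, for *GFRA1* (−0.47 to 0.22), *RET* (−0.83 to 0.0937) and *UCHL1* (−0.55 to 0.17) in cattle–yak over 18 months, and for *RET* in cattle–yak over 6 months (−0.25 to 0.70).

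Reversed values with Sertoli scaling were 0.14 for *KIT* at 18 months over 6 months. At 4 years over 18 months they were 0.0238 for *UCHL1*, 0.45 for *DMRT1*, 0.50 for *ZBTB16*, 0.38 for *GFRA1*, 0.74 for *KIT* and 0.22 for *RET*, and at 4 years over 6 months 0.87 for *KIT* and 1.42 for *RET*. In cattle–yak over 4 years they were −0.91 for *UCHL1*, −0.36 for *DMRT1*, −0.28 for *ZBTB16*, −0.996 for *GFRA1*, −0.52 for *NANOS3*, −1.53 for *KIT* and −0.94 for *RET*. The upper quartile gave −0.0581 for *FGFR3* and −0.0062 for *NANOS3* at 4 years over 18 months. *RET* at 4 years over 6 months became 0.18 with library size, 0.0716 with limma on log2(FPKM + 1) and 0.0642 on log2(FPKM + 0.1). In cattle–yak over 18 months *GFRA1* became 0.0395 with library size, 0.0569 and 0.0776 with limma at pseudocounts of 1 and 0.1, and *RET* 0.0076 with library size. Sertoli scaling also moved the median of all genes, to 0.70, 1.16 and 1.93 in these 3 comparisons of yaks and to −1.75 in cattle–yak over 4 years. For the other reversals the cause was not tested.

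Same-numbered libraries did not pair (correlations of deviations of −0.33 to 0.16, and in no comparison was every library closest to its own number, with 4 of 6 the most). With the replicate block, 2 members were higher at 4 years over 6 months and 0 in cattle–yak over 18 months, and over all genes the 10 calls at 18 months over 6 months became 538 and the 910 in cattle–yak over 18 months became 1.

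Over all genes, the 10 calls between 18 months and 6 months were 1868 with DESeq2 and 2655 with all 12 libraries, the 6 between 4 years and 18 months were 4383 and 3486, and the 910 in cattle–yak over 18 months were 2401 and 2613. Sertoli scaling gave 11444 higher and 823 lower at 4 years over 6 months, 163 and 12183 in cattle–yak over 4 years (2814 and 4453 by TMM) and 66 and 793 in cattle–yak over 18 months (542 and 368 by TMM). Leaving out 1 library moved the 18-month counts as far, to 2593 calls over 6 months without replicate 1 at 18 months. *GDNF* had 0 to 18 counts per library, *NANOS3* at 6 months 4 to 13 and *FGFR3* at 6 months 5 to 56, the last of which differed more between libraries than their totals did.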
